A study of Mus musculus with 8 samples.

Results

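The alpha subunits of heterotrimeric G proteins were examined in E18.5 mouse hearts, in wild-type (WT) embryos and in embryos with a whole-body germ-line knockout of SIRT1 (SIRT1 KO). Of 10 listed genes, *Gnai1*, *Gnai2*, *Gnai3*, *Gnao1*, *Gnaz*, *Gnas*, *Gnaq*, *Gna11*, *Gna12* and *Gna13*, 9 had at least 1 probe on the array, and every probe whose transcript accession maps to 1 of them was kept, which gave 19 of 41174 non-control probes. *Gna12* had no probe that maps to it and was not analysed here. SIRT1 is an NAD-dependent protein deacetylase, and the question asked of these data was whether its loss alters the RNA of the genes that couple receptors to their effectors in the heart. Hearts came from 4 WT and 4 SIRT1 KO embryos on a C57BL/6 background (C57BL/6J in the study's methods), from crosses of heterozygous parents kept on chow, with 1 heart on each one-color Agilent array, so that the replicates were separate embryos.

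A heterotrimeric G protein is an alpha subunit that binds guanine nucleotide, joined to a beta-gamma dimer at the inner face of the plasma membrane. An activated receptor makes the alpha subunit exchange GDP for GTP, after which both the alpha subunit and the beta-gamma dimer act on effectors until the alpha subunit hydrolyzes its GTP. The Gi, Go and Gz class restrains adenylyl cyclase, Gs stimulates it, Gq and G11 activate phospholipase C beta, and G12 and G13 act on the cytoskeleton through guanine nucleotide exchange factors of small GTPases. In the heart, Gs carries beta-adrenergic signals that raise rate and force, Gi carries muscarinic signals that slow the beat, and Gq carries angiotensin, endothelin and alpha-1-adrenergic signals.

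All levels are log2 of the processed signal relative to the 75th percentile of the same array, so that a level of 0 is the 75th percentile of that array. The level of a probe depends on its own binding properties, and levels of different probes were therefore not compared. The signal at the 75th percentile was 939 to 1033 intensity units on the WT arrays and 777 to 906 on the SIRT1 KO arrays, and no member probe was saturated. The 4 WT arrays lay on 1 slide scanned on 1 day and the 4 SIRT1 KO arrays on another, so genotype, slide and scan day cannot be told apart in any difference given here. The RNA of *Sirt1* itself went against the labels on its brighter probe, A_52_P358612, at 0.04 ± 0.20 (SD, n = 4) in WT and 0.58 ± 0.14 (SD, n = 4) in SIRT1 KO, a log2 difference of 0.54 (SE 0.11; limma adjusted p = 0.0323). The other *Sirt1* probe, A_51_P141152, differed by −0.11 (SE 0.11; limma adjusted p = 0.589). Where these probes lie relative to the deleted part of the gene is not given in the sources used here, so they do not check the genotype, and SIRT1 KO below means hearts labelled SIRT1 KO. All 10 cardiomyocyte markers listed were well above background on all 8 arrays. Their summed level was 10.5 to 10.6 in WT and 10.6 to 10.8 in SIRT1 KO, without overlap. In whole hearts, fewer cells of a type and less RNA per cell cannot be told apart.

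The probe letters are not in the files used here, and the start regions of 3 members are shown instead as genomic context: that of *Gnai1*, whose probe passed the test, that of *Gnai3*, its close relative whose probe did not, and that of *Gna13*, a member of another class whose brighter probe did not overlap between the genotypes. Each is the 300 bases around a RefSeq transcript start in GRCm38.p6, ending 50 bases into the transcript, written 5′ to 3′ on the strand of the gene, and capitals mark GC boxes, GGGCGG on either strand. They lie at chr5:18360364-18360663 (minus strand) for *Gnai1*, chr3:108146103-108146402 (minus strand) for *Gnai3* and chr11:109362544-109362843 (plus strand) for *Gna13*.
Gnai1: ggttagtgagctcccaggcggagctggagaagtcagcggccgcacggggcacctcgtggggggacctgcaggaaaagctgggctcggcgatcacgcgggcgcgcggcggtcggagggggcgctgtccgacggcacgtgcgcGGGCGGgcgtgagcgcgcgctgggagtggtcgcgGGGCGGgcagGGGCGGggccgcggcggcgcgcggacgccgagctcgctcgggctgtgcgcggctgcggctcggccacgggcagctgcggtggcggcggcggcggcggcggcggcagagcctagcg
Gnai3: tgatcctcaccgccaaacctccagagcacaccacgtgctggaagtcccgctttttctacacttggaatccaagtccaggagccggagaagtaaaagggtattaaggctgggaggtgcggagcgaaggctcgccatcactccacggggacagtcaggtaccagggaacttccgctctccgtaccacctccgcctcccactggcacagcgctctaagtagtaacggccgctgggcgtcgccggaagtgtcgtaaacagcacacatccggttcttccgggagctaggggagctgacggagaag
Gna13: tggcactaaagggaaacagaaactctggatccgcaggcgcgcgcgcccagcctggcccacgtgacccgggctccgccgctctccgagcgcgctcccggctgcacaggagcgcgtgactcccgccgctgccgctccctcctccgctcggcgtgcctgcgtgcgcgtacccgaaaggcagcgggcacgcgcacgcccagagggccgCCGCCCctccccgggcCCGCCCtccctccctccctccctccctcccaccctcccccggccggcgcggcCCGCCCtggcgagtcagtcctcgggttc
The *Gnai1* window held 3 GC boxes and was 80.0% G and C, the *Gna13* window held 3 and was 76.7% G and C, and the *Gnai3* window held none and was 59.3% G and C. A GC box stood in 35.7% of 32851 RefSeq start regions of this length, whose median was 52.7% G and C. All 3 windows also held 1 E-box, CACGTG, a palindrome that reads alike on both strands and that stood in 7.15% of the start regions; no E-box overlapped a GC box. Other motifs were searched on both strands, and their letters were not in these 3 windows. The TATA box was searched as TATAAA and stood in 13.6% of all start regions. The CCAAT box was searched by its own letters and stood in 37.4%. The cAMP response element was searched as TGACGTCA and stood in 1.79%. RefSeq listed 11 start regions for 8 of the 10 members, and over all 11 a GC box stood in 7 and an E-box in 3, which are the 3 shown. *Gnaq*, *Gna11*, *Gna12* and some of the *Gnas* windows also held GC boxes, and the arrays measured RNA and not the promoters.

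Among the alpha subunits, 1 probe of *Gnai1*, which encodes an inhibitory alpha subunit, was lower in SIRT1 KO hearts, and no probe of the other members passed the test. A probe entered the test when the scanner software flagged it as well above background on 4 arrays or more. Of the 19 probes, 15 did so, and the other 4 were flagged on 0 arrays. Of these 15, 10 were lower and 5 higher in SIRT1 KO on the mean, and 1 passed an adjusted p of 0.05 as lower and 0 as higher, where 0.91% and 3.97% of the 25616 probes tested passed as lower and as higher by limma with Benjamini-Hochberg adjustment. At an unadjusted p under 0.05, limma called 4 of the 15 probes (21.5% of all probes tested) and the analysis of variance of the study's methods called 5 (20.1% of all), and each left 1 after adjustment. The WT and SIRT1 KO values did not overlap for 3 of the 15 probes, against 13.7% of all probes with a value on every array. The median log2 difference was −0.06 over the 15 member probes and 0.01 over all probes tested.

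**Figure D1:**
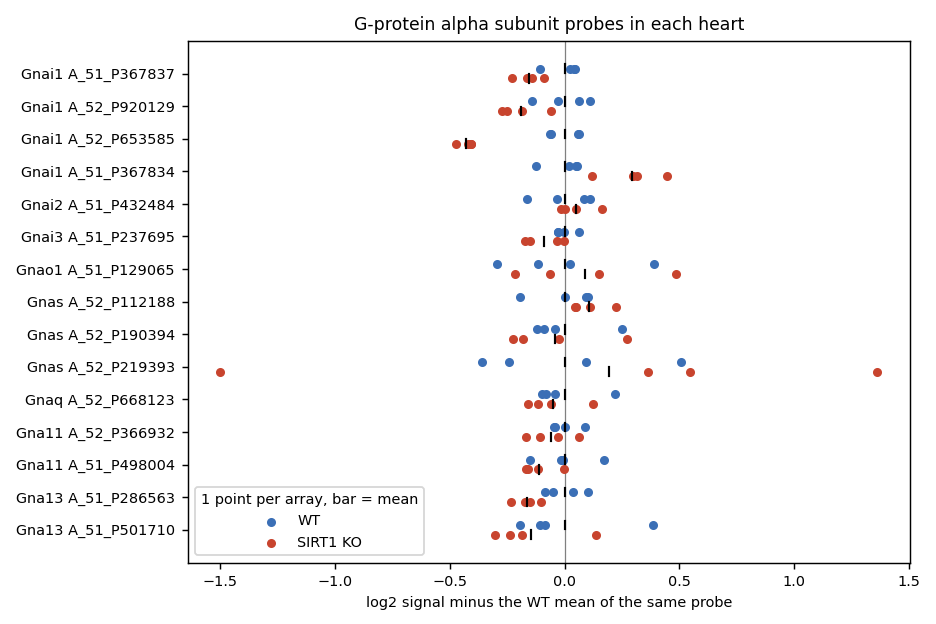
Level of each tested alpha subunit probe in each heart, as the log2 signal minus the WT mean of the same probe (x axis), 1 row per probe and 1 point per heart, colored by genotype. The SIRT1 KO points of *Gnai1* A_52_P653585 all lie left of the WT points, those of *Gnai1* A_51_P367834 all lie right of them, and those of *Gna13* A_51_P286563 all lie left.

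*Gnai1* was measured by 4 probes, which did not move together. Probe A_52_P653585 read −0.20, −0.08, −0.21 and −0.08 in WT replicates 1 to 4 and −0.55, −0.62, −0.57 and −0.55 in SIRT1 KO replicates 1 to 4. Every SIRT1 KO heart was below every WT heart, and the SIRT1 KO hearts lay closer to each other than the WT hearts did. The mean fell from −0.14 ± 0.07 (SD, n = 4) to −0.57 ± 0.03 (SD, n = 4), a log2 difference of −0.43 (SE 0.07; 95% confidence interval −0.58 to −0.28; limma adjusted p = 0.00872), or a signal ratio of 0.743. The exact two-sided permutation test gave p = 0.0286, the smallest it can give for 4 against 4 hearts. The difference passed the threshold without any 1 of the 8 arrays (adjusted p 0.0172 to 0.0335) and under 19 of the 20 alternative settings, with adjusted p between 0.00547 and 0.123. The exception left out the 3 arrays with the highest summed liver markers, SIRT1 KO replicates 1 and 4 and WT replicate 4, where the difference was again −0.43 with an adjusted p of 0.123. The 20 settings include the 8 fits without 1 array and the deposited table of the same values, whose pass was fixed in advance. The average over the *Gnai1* probes, given below, is not among the 20.

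The brightest *Gnai1* probe, A_51_P367837, read 2.34, 2.34, 2.19 and 2.32 in WT and 2.16, 2.07, 2.13 and 2.21 in SIRT1 KO. The groups overlapped through WT replicate 3 and SIRT1 KO replicate 4, and the difference of −0.16 (SE 0.07; 95% confidence interval −0.32 to 0.00) did not pass the test (limma adjusted p = 0.241). Probe A_52_P920129 read 0.50, 0.39, 0.64 and 0.59 in WT and 0.26, 0.28, 0.34 and 0.47 in SIRT1 KO. Only SIRT1 KO replicate 4 reached the WT range, and the difference was −0.19 (SE 0.08; limma adjusted p = 0.23).

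The dimmest *Gnai1* probe, A_51_P367834, had the opposite sign. It read −3.67, −3.85, −3.70 and −3.66 in WT and −3.42, −3.41, −3.28 and −3.60 in SIRT1 KO. Every SIRT1 KO heart was above every WT heart, at processed signals of only 71.2 to 85.0 intensity units, and the difference of 0.29 (SE 0.09; 95% confidence interval 0.10 to 0.49) did not pass the test (limma adjusted p = 0.0966; exact permutation p = 0.0286). With array weights it passed as higher, at 0.29 (limma adjusted p = 0.0424). All 4 probes carry the same transcript accession, and which exons or ends of the transcript they lie on is not given in the sources used here.

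**Figure D2:**
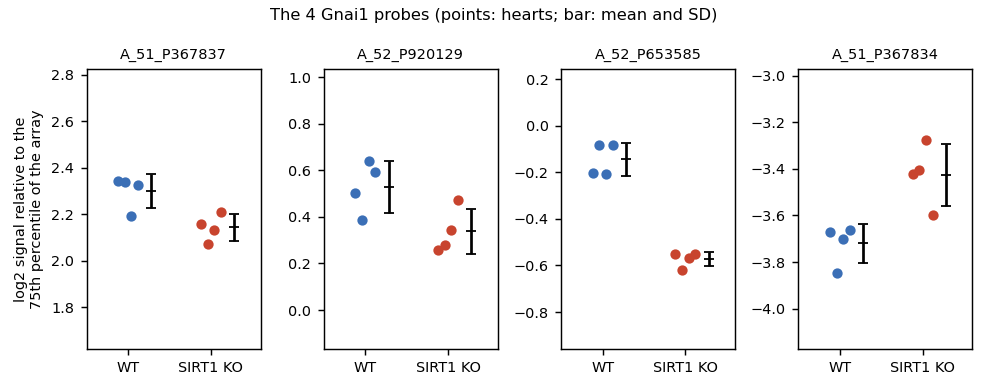
The 4 *Gnai1* probes, 1 panel each, with the log2 signal relative to the 75th percentile of the array on the y axis, 1 point per heart and a bar for the mean and SD of each genotype. Each panel spans the same height on the log2 scale; 3 probes have lower SIRT1 KO means, by 0.16 to 0.43, and A_51_P367834 has a SIRT1 KO mean higher by 0.29.

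The disagreement between *Gnai1* probes was then expressed within each array, where scaling by 1 value per array cancels. Quantile normalization does not cancel, and with it A_51_P367834 differed by 0.17 and A_52_P653585 by −0.43. These pairs of probes were compared after their values were seen, and the values are given as a description. A_51_P367834 minus A_52_P653585 was −3.47, −3.76, −3.49 and −3.58 in WT and −2.87, −2.79, −2.71 and −3.05 in SIRT1 KO. The gap between the 2 probes was thus smaller by 0.72 on the log2 scale in SIRT1 KO, with no overlap between the hearts. The dimmer probe rose and the brighter one fell. A_52_P653585 minus A_51_P367837 was −2.44 ± 0.07 (SD, n = 4) in WT and −2.72 ± 0.03 (SD, n = 4) in SIRT1 KO, again without overlap. A_52_P920129 minus A_51_P367837 was −1.77 ± 0.17 (SD, n = 4) in WT and −1.81 ± 0.07 (SD, n = 4) in SIRT1 KO, so that pair kept its distance within the spread of the hearts. Over all 11 pairs of probes of 1 gene, the smallest Benjamini-Hochberg p was 0.0786 by exact permutation tests, and with so few separated pairs that adjustment could not be passed. With the 4 probes averaged in each heart, *Gnai1* differed by −0.12 (SE 0.06; limma adjusted p = 0.247), and no member passed the test on its average.

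Neither of the other Gi genes passed the test. *Gnai2*, the inhibitory alpha subunit found in most tissues, read 2.83, 2.58, 2.71 and 2.85 in WT and 2.79, 2.74, 2.90 and 2.73 in SIRT1 KO on its only probe, a difference of 0.05 (SE 0.08; 95% confidence interval −0.14 to 0.24; limma adjusted p = 0.776). *Gnai3*, the third inhibitory alpha subunit, read 3.93, 3.92, 3.95 and 4.02 in WT and 3.80, 3.92, 3.95 and 3.78 in SIRT1 KO. SIRT1 KO replicates 1 and 4 were its lowest hearts, replicate 2 lay just below the WT range and replicate 3 within it, with a difference of −0.09 (SE 0.07; 95% confidence interval −0.25 to 0.07; limma adjusted p = 0.496). SIRT1 KO replicates 1 and 4 also had the highest summed liver markers, 5.90 and 4.88, against 2.02 to 3.74 in WT and 2.30 and 2.93 in the other SIRT1 KO hearts. Without these 2 hearts and WT replicate 4, a setting chosen after seeing the data that also removes the lowest SIRT1 KO hearts and the highest WT heart of this probe, the *Gnai3* difference was 0.00219 (limma adjusted p = 0.995). The part of liver RNA was not tested. With all hearts, *Gnai3* differed by −0.22 with median scaling (limma adjusted p = 0.108). Without scaling it differed by −0.31 and passed as lower (limma adjusted p = 0.026).

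*Gnao1* encodes the alpha subunit of Go, which is abundant in neurons and endocrine cells and present in heart muscle. Its probe A_51_P129065 read −2.60, −1.91, −2.41 and −2.28 in WT and −2.52, −1.81, −2.36 and −2.15 in SIRT1 KO. Replicate 2, which occupies the same position on both slides, was the highest of its group in both genotypes, and the difference of 0.09 (SE 0.18) had a 95% confidence interval of −0.32 to 0.50 (limma adjusted p = 0.816). The other 2 *Gnao1* probes, A_52_P205031 and A_52_P205037, which carry a different transcript accession, were flagged as above background on 0 of 8 arrays. *Gnaz* encodes Gz, an alpha subunit known from platelets and neurons. Both of its probes, A_51_P164605 and A_52_P307761, were likewise flagged on 0 of 8 arrays, and no fold is given for these 4 probes. Among neuron and Schwann cell markers, *Th* and *Dbh* were flagged on 0 arrays, while *Sox10*, *Elavl4* and *Stmn2* were flagged on all 8. *Sox10* rose by 0.80 (limma adjusted p = 0.0199), and *Elavl4* and *Stmn2* differed by −0.46 and 0.12 (limma adjusted p = 0.0607 and 0.584). All 7 platelet markers were flagged on every array. The part of these cell types in the *Gnao1* values was not tested.

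*Gnas* encodes Gs alpha and, from alternative imprinted first exons, further proteins, and its 3 probes carry 3 different transcript accessions. Probe A_52_P112188 read 2.92, 2.63, 2.82 and 2.92 in WT and 2.93, 2.87, 3.05 and 2.87 in SIRT1 KO. WT replicate 2 was the lowest heart and the groups overlapped; the difference was 0.11 (SE 0.09; 95% confidence interval −0.09 to 0.31; limma adjusted p = 0.521). A_52_P190394 read −4.19 to −3.82 in WT and −4.29 to −3.80 in SIRT1 KO, a difference of −0.04 (SE 0.13; limma adjusted p = 0.886). A_52_P219393 was well above background on 2 WT and 3 SIRT1 KO arrays only. It ran from −6.90 in SIRT1 KO replicate 3 to −4.04 in SIRT1 KO replicate 2, and its difference of 0.19 (SE 0.52; 95% confidence interval −0.99 to 1.37; limma adjusted p = 0.863) had the widest interval of the member probes tested.

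*Gnaq* and *Gna11* encode the closely related alpha subunits that activate phospholipase C beta. *Gnaq* A_52_P668123 read 2.19, 2.46, 2.15 and 2.14 in WT and 2.12, 2.18, 2.08 and 2.36 in SIRT1 KO, a difference of −0.05 (SE 0.10; 95% confidence interval −0.28 to 0.17; limma adjusted p = 0.801). One heart in each genotype, WT replicate 2 and SIRT1 KO replicate 4, stood above the other 3. The *Gna11* probes had the same sign: A_52_P366932 was 1.45 ± 0.06 (SD, n = 4) in WT and 1.39 ± 0.10 (SD, n = 4) in SIRT1 KO, and A_51_P498004 was 0.66 ± 0.13 (SD, n = 4) and 0.55 ± 0.08 (SD, n = 4). Their differences of −0.06 (limma adjusted p = 0.685) and −0.11 (limma adjusted p = 0.488) lay within the spread between hearts.

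*Gna13* encodes the alpha subunit that acts through exchange factors of small GTPases. Its brighter probe, A_51_P286563, read 2.32, 2.41, 2.29 and 2.48 in WT and 2.22, 2.27, 2.14 and 2.20 in SIRT1 KO. Every SIRT1 KO heart was below every WT heart (exact permutation p = 0.0286), but the difference of −0.16 (SE 0.07; 95% confidence interval −0.33 to 0.00) did not pass the test across all probes (limma adjusted p = 0.228). The dimmer probe, A_51_P501710, read −4.04 to −3.46 in WT and −4.15 to −3.71 in SIRT1 KO, with overlapping groups and a difference of −0.15 (SE 0.15; limma adjusted p = 0.595).

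**Figure D3:**
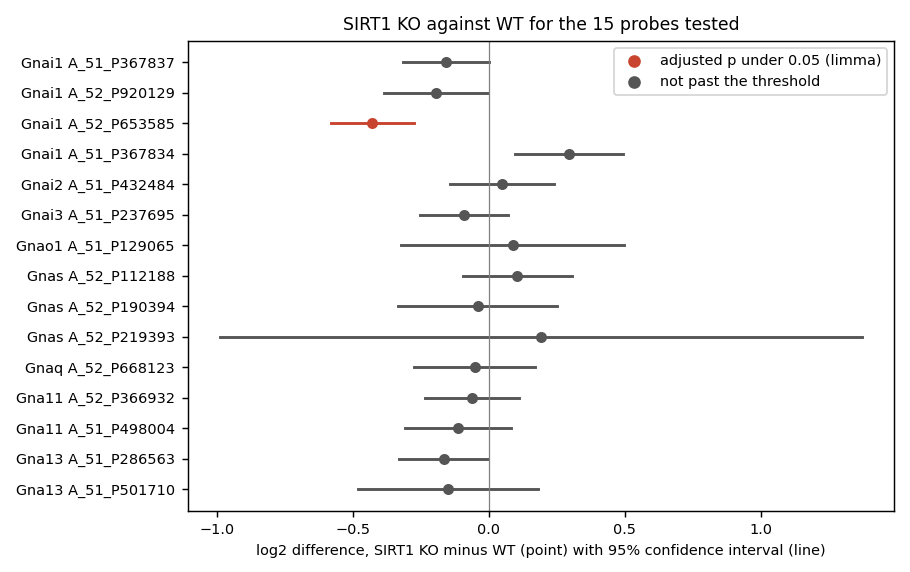
Log2 difference, SIRT1 KO minus WT (x axis), with its 95% confidence interval for each of the 15 tested alpha subunit probes (rows; 4 hearts per genotype). *Gnai1* A_52_P653585, at −0.43, is the only probe past an adjusted p of 0.05 by limma; the interval of *Gnas* A_52_P219393 runs from −0.99 to 1.37.

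Balance between the classes was examined from the brightest probe of each of the 8 measured genes. For each pair of genes, the change of 1 minus the change of the other was taken within each array. Scaling by 1 value per array does not alter such a difference, while quantile normalization can. In 28 such pairs, 3 separated the genotypes without overlap, and all 3 involved *Gnas*. *Gnai1* changed by 0.26 less than *Gnas* on the log2 scale, *Gnai2* by 0.06 less and *Gna13* by 0.27 less (exact permutation p = 0.0286 for each). That is the smallest p that 4 against 4 hearts allow, and it came to 0.267 after Benjamini-Hochberg adjustment over the 28 exact permutation tests. So few separated pairs could not pass that adjustment, which therefore bears on neither presence nor absence of a shift between the classes. *Gnai2* minus *Gnas* was the least variable of these, with an SD over hearts of 0.03 in WT and 0.01 in SIRT1 KO (n = 4 each).

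The sign of several small differences depended on how the arrays were scaled. Median scaling moved the median of all probes to −0.12 and no scaling moved it to −0.21, against 0.01 with the 75th percentile and −0.02 with quantile normalization. Of all probes called, 1017 of 1250 were higher with the 75th percentile and 672 of 1051 with quantile normalization. With median scaling 680 of 1784 were higher, and without scaling 637 of 6347. The members followed: 10 of 15 probes were lower with the 75th percentile (median −0.06), 11 after quantile normalization (−0.08), 13 after scaling to the median (−0.19) and 14 on unscaled values (−0.28). *Gnai1* A_52_P653585 ranged from −0.65 to −0.43 over the other 3 scalings and passed the test under each, while *Gnai1* A_51_P367834 stayed positive but shrank to 0.07 without scaling (limma adjusted p = 0.541). *Gna13* A_51_P286563 passed the test with median scaling, at −0.29 (limma adjusted p = 0.0462), and without scaling. *Gnai2*, *Gnao1* and *Gnas* A_52_P112188 turned from higher to lower under median scaling and without scaling.

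**Figure D4:**
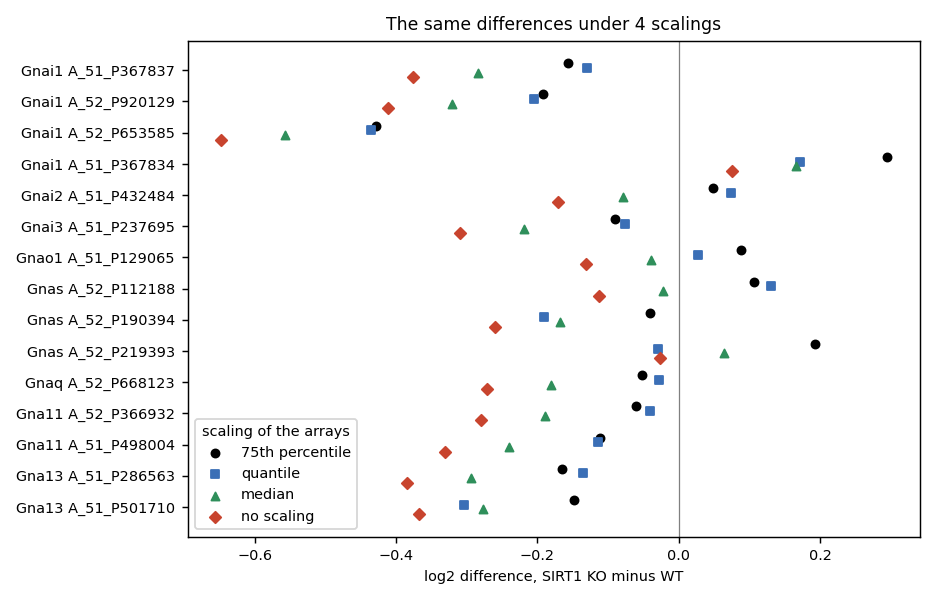
Log2 difference, SIRT1 KO minus WT (x axis), of the 15 tested alpha subunit probes (rows) under 4 scalings of the arrays (colors: 75th percentile, quantile, median and none). The values without scaling lie farthest left for all probes but *Gnas* A_52_P219393, and *Gnai1* A_52_P653585 lies left of 0 under all 4 scalings.

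The genes around the alpha subunits were taken from 11 lists of partners, effectors and receptors, each gene by its brightest probe. Of 138 listed genes, 135 were on the array and 108 were tested: 43 were higher and 65 lower on the mean, and 7 passed the test as higher and 1 as lower. One of the 7, *Vipr1*, was not above background in WT and entered the test through the SIRT1 KO arrays alone, so that it had to differ. Another, *Grk4*, was well above background on only 2 of 4 WT arrays. Over all 13590 genes tested, 3.69% passed as higher and 0.89% as lower, and the medians were −0.04 for the lists and −0.01 for all genes. All 7 genes that passed as higher had levels below the 75th percentile of the array in every heart. The direction of the calls depended on the scaling: 9 of 13 calls among the lists were lower with median scaling and 26 of 32 without scaling.

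Among other alpha subunits, *Gna15*, a member of the Gq class known from blood cells, rose. It read −4.99, −4.77, −4.82 and −4.70 in WT and −3.88, −3.87, −3.60 and −4.52 in SIRT1 KO, a difference of 0.85 (SE 0.18; limma adjusted p = 0.0291). SIRT1 KO replicate 4 lay nearest to WT, without overlap. All 9 leukocyte markers listed were well above background on every array, with summed levels of 1.96 to 2.46 in WT and 1.93 to 2.64 in SIRT1 KO. On the mean, 7 of them were higher and 2 lower, none past the test, with *Cd68* higher by 0.64 without overlap (limma adjusted p = 0.133), and their part in this result was not tested. *Gnal* and *Gnat1* were flagged as above background on 0 of 8 arrays. None of the 12 tested beta and gamma subunit genes passed the test, and 9 of them were lower on the mean; *Gng2* had the smallest p, at 3.72 ± 0.16 (SD, n = 4) in WT and 3.37 ± 0.14 (SD, n = 4) in SIRT1 KO without overlap (difference −0.35, limma adjusted p = 0.0998). *Gng2* passed as lower under 5 of the 20 alternative settings, with adjusted p between 0.0143 and 0.0499 by limma.

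Of 25 tested genes for proteins that act on the alpha subunit directly, GTPase-activating proteins, dissociation inhibitors and chaperones, 9 were higher and 16 lower on the mean, and 2 passed the test, both as higher. *Pcp2*, whose protein has a GoLoco motif that binds inhibitory alpha subunits, read −2.75, −2.84, −2.48 and −2.47 in WT and −1.82, −1.46, −1.49 and −1.76 in SIRT1 KO. The groups stood well apart, with a difference of 1.00 (SE 0.12; limma adjusted p = 0.00337). *Rgs11*, a GTPase-activating protein for Go and its relatives, was −2.95 ± 0.42 (SD, n = 4) in WT and −2.09 ± 0.23 (SD, n = 4) in SIRT1 KO, a difference of 0.86 (SE 0.20; limma adjusted p = 0.049).

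No effector gene passed the test. Of 9 adenylyl cyclases, the enzymes that make cAMP, 4 were higher and 5 lower. *Adcy1* had the smallest p (difference −0.96, SE 0.31, limma adjusted p = 0.125) with overlapping groups. It passed as lower with the replicate number as a block and without scaling (limma adjusted p = 0.0296 and 0.0369). With normexp it differed by −0.30 and with array weights by −0.65, and it passed with neither (limma adjusted p = 0.131 and 0.194). Of 7 Gq effectors, 4 were higher and 3 lower, and *Arhgef25*, an exchange factor that Gq activates, differed by 0.33 (SE 0.11; limma adjusted p = 0.129) and passed as higher with array weights, with normexp and without SIRT1 KO replicate 3 (limma adjusted p 0.0361 to 0.044). Of 7 G12/13 effectors, 4 were higher and 3 lower, with differences from −0.17 to 0.08, and *Rhoa* itself was the lowest (limma adjusted p = 0.218). Of 5 tested beta-gamma effectors, 2 were higher and 3 lower; *Kcnj5*, a subunit of the atrial potassium channel that beta-gamma opens, differed by −0.21 (limma adjusted p = 0.364).

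Receptors and their kinases held the remaining calls. *Grk4*, a kinase that marks active receptors for arrestin, differed by 0.93 (SE 0.21, limma adjusted p = 0.0378), the only call among 7 receptor kinases and arrestins. It was well above background on 2 of 4 WT and all SIRT1 KO arrays, so that the WT arrays alone would not have met the filter. WT replicate 4 read −5.93, below the dimmest flagged signal of its array, −5.55. With normexp background correction *Grk4* differed by 0.32 and did not pass (limma adjusted p = 0.0573). Of 9 tested Gs-coupled receptors, *Vipr1*, a receptor of vasoactive intestinal peptide, passed. It was flagged as above background on 0 of 4 WT arrays and entered the test through the SIRT1 KO arrays alone, where it read −4.16, −4.45, −4.23 and −4.46. Its pass (limma adjusted p = 0.00562) therefore adds no support beyond that filter. *Vipr1* was at least 2.62-fold higher in SIRT1 KO, taking for each WT array the higher of its own value and the dimmest flagged signal. With normexp background correction, which adds an offset, the fitted log2 difference was 0.64 in place of 1.74. None of 8 tested Gi-coupled receptors passed. *Chrm2*, the muscarinic receptor that slows the heart, read −4.70, −4.40, −4.52 and −4.72 in WT and −5.27, −4.82, −5.12 and −4.87 in SIRT1 KO, without overlap (difference −0.44, SE 0.12; limma adjusted p = 0.0805). It passed the test with quantile, median and no scaling, at −0.64, −0.56 and −0.66 (limma adjusted p 0.0166 to 0.0297), and its sign turned to 0.07 with normexp background correction.

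Among 16 tested receptors that couple to Gq or G12/13, 4 were higher and 12 lower on the mean, and 3 passed the test. *Uts2r*, the urotensin receptor, read −3.63, −3.56, −3.59 and −3.57 in WT and −3.33, −2.97, −2.99 and −2.87 in SIRT1 KO, a difference of 0.55 (SE 0.10; limma adjusted p = 0.0187). *Adra1d*, an alpha-1-adrenergic receptor, rose by 0.46 (SE 0.10; limma adjusted p = 0.0294). *Lpar4*, a lysophosphatidic acid receptor, was the only gene of the lists that passed as lower. It read 1.47, 1.77, 1.75 and 1.59 in WT and 1.28, 1.30, 1.34 and 1.19 in SIRT1 KO (difference −0.37, SE 0.09, limma adjusted p = 0.0466).

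Of the other 7 calls, *Pcp2* passed without any 1 of the 8 arrays. *Uts2r* did not pass without WT replicate 1, 2 or 3 or SIRT1 KO replicate 2 (limma adjusted p 0.0513 to 0.0578). *Gna15* did not pass without any 1 WT array or SIRT1 KO replicate 1 or 2 (0.0574 to 0.0786), and *Adra1d* without WT replicate 1, 2 or 3 or SIRT1 KO replicate 1 or 2 (0.0679 to 0.0852). *Lpar4* passed only without WT replicate 1 or SIRT1 KO replicate 3 (0.0889 to 0.133 otherwise), *Grk4* only without WT replicate 3 or SIRT1 KO replicate 4 (0.0633 to 0.0976 otherwise) and *Rgs11* only without WT replicate 1 (0.072 to 0.13 otherwise). The differences kept their signs in each of these fits, which had 7 arrays. With the replicate number as a block, *Gna15*, *Adra1d* and *Lpar4* did not pass (limma adjusted p 0.0559 to 0.0658). With the methods' analysis of variance, *Pcp2* was the only 1 of the 7 that passed (adjusted p = 0.0275), and the others had adjusted p between 0.059 and 0.135. With quantile normalization *Pcp2* was again the only 1 of the 7 (limma adjusted p 0.0524 to 0.107 for the others), and with no filter on dim probes *Pcp2* and *Uts2r* passed (0.0613 to 0.0936 for the others).

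**Figure D5:**
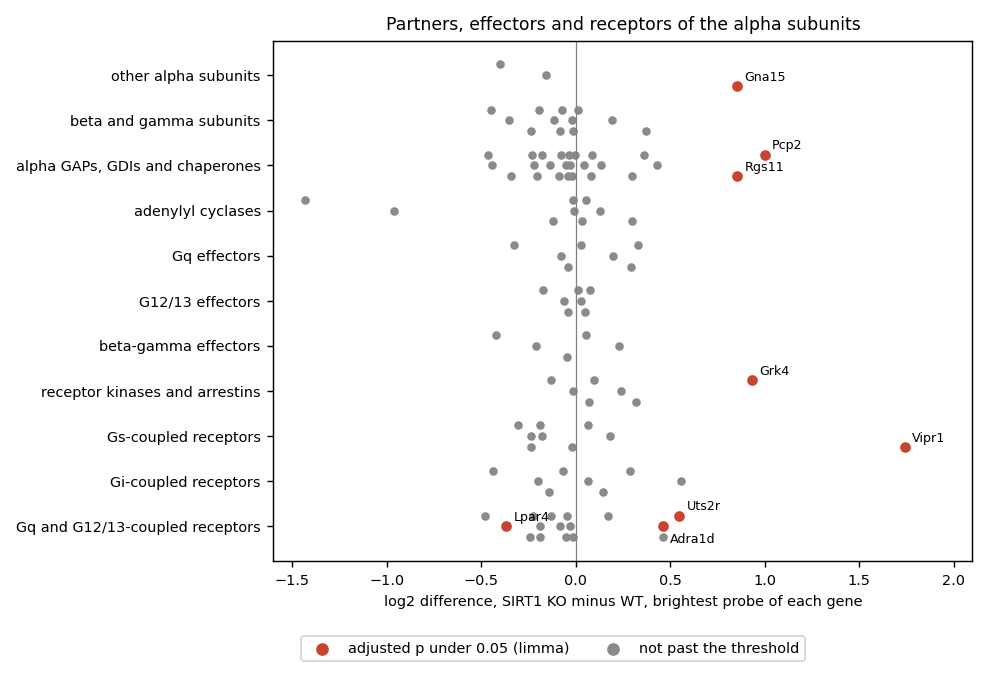
Log2 difference, SIRT1 KO minus WT (x axis), of the 108 tested genes of the 11 lists (rows), 1 point per gene by its brightest probe; red points passed an adjusted p of 0.05 by limma. The 8 called genes are named, 7 to the right of 0 and *Lpar4* to the left; the *Vipr1* point is the fitted value of a gene not well above background in WT, which has a bound of 2.62-fold with the processed signal.

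The 5 named genes whose pattern over the 8 hearts was most like that of *Gnai1* A_52_P653585 were *Kif5b* (Pearson r = 0.984), *Ddah1* (0.983), *Rhoj* (0.978), *Klf4* (0.975) and *Ccser2* (0.971), of 18919 probes of named genes well above background on all arrays. These points share the 8 arrays and their 2 genotypes, so that any gene lower in SIRT1 KO correlates with this probe. *Kif5b*, a kinesin motor, *Ddah1*, an enzyme that clears methylated arginines, *Rhoj*, a small GTPase of endothelium, and *Klf4*, a transcription factor, differed by −0.35, −0.30, −0.38 and −0.38 (limma adjusted p 0.0136 to 0.0372), and *Ccser2* by −0.12 (limma adjusted p = 0.298). All 6 endothelial markers listed were also lower in SIRT1 KO on the mean, none past the test, with summed levels of 5.22 to 5.43 in WT and 5.04 to 5.31 in SIRT1 KO; their part in the *Gnai1* difference was not tested.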

How the data were processed

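RNA of 4 WT and 4 SIRT1 KO E18.5 hearts was measured on one-color Agilent arrays. Spot intensity values were deposited as Agilent Feature Extraction wrote them (12.0.0.7 in the file headers), background-subtracted and not scaled between arrays. Here log2 of the processed signal was taken, the 75th percentile over non-control probes was subtracted from each array, and replicate spots were averaged per probe. Probes were named by transcript accession through RefSeq genes of GRCm38.p6, which named 28215 of 41174 probes. The 25616 probes flagged as well above background on 4 or more of 8 arrays were tested in R 4.3.3 by limma 3.58.1 (moderated linear model, genotype as the only factor) with Benjamini-Hochberg adjustment at 0.05, and with exact two-sided permutation tests for single values. The number of arrays limits the precision. Tests were checked on simulated data.

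The members, lists, tests and alternatives were chosen with earlier results of these data known. Every member probe, both *Sirt1* probes, the calls of each list (or its gene of smallest p, where none passed) and the 5 genes most like the member probe of smallest p were named. A probe not well above background in a genotype has a bound there, set by the dimmest probe of each array that has the flag. A deposited table of the same processed intensity values served as an alternative. Alternatives were quantile, median and no scaling, normexp background correction (offset 50), other filters on dim probes, the methods' analysis of variance, limma with trend or array weights, a replicate block, gene averages and leaving out arrays. A planned normexp correction on the mean signal was run on the median signal, the column in the files. Python 3.11.15 with pandas 2.3.3, numpy 2.4.6 and matplotlib 3.10.9 served for reading files and plotting. Some listed neuron and Schwann cell markers are not reported here.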

Additional observations from a re-analysis of the deposited data

Results flagged for a closer look

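Of 58 groups of 4 hearts checked, over 29 named probes, 2 held a heart set apart from the other 3 by more than Dixon's test at 95% allows, and chance gives about 1 in 20. For *Gnai1* A_51_P367837, WT replicate 3 was 2.19 while the other WT hearts were 2.32 to 2.34, and it was the only WT heart within the SIRT1 KO range. For *Adra1d* A_51_P252534, SIRT1 KO replicate 4 was −3.47 while the other SIRT1 KO hearts were −3.23 to −3.18, and it was the SIRT1 KO heart nearest to WT.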

How the results depend on the processing

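The count of member probes past the threshold, 1 in the report, was 2 with median scaling (both lower), 7 without scaling, 2 with array weights (1 lower, and *Gnai1* A_51_P367834 higher), 0 of 8 genes with gene averages and 0 without the 3 arrays highest in liver markers (a setting chosen after seeing the data, with 5 arrays), and 1 under the other settings. Without each replicate in turn it stayed at 1. The count of pathway genes, 8 in the report, was 3 with quantile normalization, 13 with median scaling, 32 without scaling, 17 with normexp on the median signal (also chosen after seeing the data), 3 with no filter on dim probes, 2 with the methods' analysis of variance, 12 with array weights, 5 without the 3 arrays highest in liver markers and 2 to 7 without each replicate in turn: 4 without WT replicate 1, 2 without WT replicate 2, 3 without WT replicate 3, 5 without WT replicate 4, and 3, 2, 7 and 6 without SIRT1 KO replicates 1 to 4. Of the pathway genes called, 1 was lower in the report, 9 with median scaling, 26 without scaling and 6 with normexp. With median scaling, *Rgs11*, *Adra1d* and *Grk4* did not pass (limma adjusted p 0.0508 to 0.0695). Dim probes of *Gnas* turned sign: A_52_P219393 was −0.029 with quantile normalization and −0.027 without scaling, and A_52_P190394 was 0.13 with normexp, 0.035 with array weights and 0.093 without the 3 arrays. With median scaling *Gnas* A_52_P112188 was −0.022, *Gnao1* A_51_P129065 −0.040 and *Gnai2* A_51_P432484 −0.079, and without scaling they were −0.11, −0.13 and −0.17. With normexp *Gna13* A_51_P501710 was 0.056, *Kcnj5* 0.13 and *Chrm2* 0.066. Without the 3 arrays *Gnai3* was 0.00219 and *Kcnj5* 0.013. Leaving out 1 array gave ranges that cross 0 for *Gnao1* (−0.044 to 0.22), *Gnas* A_52_P190394 (−0.14 to 0.043), *Gnas* A_52_P219393 (−0.20 to 0.76), *Gnai2* (−0.0051 to 0.086) and *Gnaq* (−0.11 to 0.022). The cause of these changes was not tested, except that settings with fewer arrays have fewer samples.

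The replicate number marks the position on the slide. Deviations of same-numbered hearts correlated at 0.20, 0.21, 0.06 and 0.14, so that replicate 3 fell under 0.1 and the numbers were not taken as pairs, although every heart correlated best with its own number. With the replicate number as a block, 1 member probe, 9 pathway genes and 1185 of all probes passed, against 1, 8 and 1250 without it. The pathway genes were not all the same: *Gna15*, *Adra1d* and *Lpar4* did not pass with the block (limma adjusted p 0.0559 to 0.0658), *Adcy1* did (0.0296), and 3 in place of 1 passed as lower. Signal over background limits *Gnaz* and 2 *Gnao1* probes, for which no difference is given.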
